A study of Mus musculus with 24 samples.

Results

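The genes described here belong to name families known for core proteins of the spliceosome and for the RNA-binding proteins that coat pre-mRNA and steer splicing. They were chosen by a name rule, with earlier results of these data known. The rule took every count table entry with a name part that begins with Snrp, Hnrnp, Srsf, Sfrs, Sf3a, Sf3b or Lsm. After these letters the name part holds letters or digits only. This gave 69 of 27297 entries, of which 12 were Snrp, 13 Lsm, 8 Sf3a or Sf3b, 18 Srsf or Sfrs and 18 Hnrnp entries. Some match by an older name only, among them Sugp2 (Sfrs14), Srek1ip1 (Sfrs12ip1), Clasrp (Sfrs16), Scaf4 (Srsf15) and Sfswap (Srsf8). Lsmd1, now called Naa38, belongs to a protein acetylation complex and not to the spliceosome. It is not the only such Lsm entry, since Lsm1 marks a cytoplasmic ring in mRNA decay. The Lsm sums therefore do not stand for the spliceosome alone.

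The study, titled as one of cell-cycle status and heterogeneity, measured mouse haematopoietic stem cells (HSCs) of the strain -60/DR5-TA-RA-CFP, whose cells differ in their level of a cyan fluorescent protein (CFP). All cells came from this strain, were sorted as LSK (cells without lineage markers that carry Sca-1 and Kit), CD150+ and CD48-, and had a CFP status labelled mixed; the labels used here give no age, treatment or control strain. The labels list 8 single-cell batches, whose mouse field repeats the batch number, but the count table pools them with no map from wells to batches or animals, and the index record names 4 sort plates (2, 3, 4 and 5). Bulk RNA and bisulphite samples were not analysed here. Of 1430 recorded cells, the 20% with the highest CFP in each plate were called bright (286 cells), the 20% with the lowest dim (286) and the rest intermediate (858).

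Introns are removed from pre-mRNA by small nuclear ribonucleoproteins (snRNPs), each an RNA with a ring of Sm proteins and particle-specific partners. Sm proteins are coded by Snrpb, Snrpd1, Snrpd2, Snrpd3, Snrpe, Snrpf and Snrpg, and the U6 snRNP carries a ring of the related Lsm proteins instead. Sf3a and Sf3b proteins belong to the U2 snRNP and recognise the branch point, SR proteins (Srsf) bind exonic enhancers and recruit the core machinery, and hnRNP proteins package pre-mRNA and often oppose SR proteins. In HSCs most cells are quiescent, and blood-forming cells depend on splicing factors such as SF3B1 and SRSF2, which are recurrently mutated in myelodysplastic syndromes.

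Promoters of 4 members that rose in bright cells are shown, from the Snrp, Lsm and Srsf families, so that their make-up can be read beside the values below. Each run is the 250 bases before the start of the gene in RefSeq on build GRCm38.p6, 5′ to 3′ on the coding strand. Capitals mark matches, on either strand, to any of 5 motifs, and adjoining capitals can hold overlapping matches. The CCAAT box was searched as CCAAT. The GC box, bound by Sp proteins, was searched as GGGCGG. The core bound by ETS factors was searched as CCGGAAG. The core bound by E2F factors was searched as TTCCCGC. The TATA box was searched as TATAAA. Motifs and promoters were chosen after the values were seen.
Snrpd3, chr10:75517792-75518041, plus strand: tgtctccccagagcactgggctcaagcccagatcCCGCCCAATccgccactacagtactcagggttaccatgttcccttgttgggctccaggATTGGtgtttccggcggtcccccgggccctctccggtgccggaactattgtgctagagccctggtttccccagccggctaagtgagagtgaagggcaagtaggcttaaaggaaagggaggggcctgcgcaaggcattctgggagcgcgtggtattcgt
Lsm2, chr17:34981604-34981853, plus strand: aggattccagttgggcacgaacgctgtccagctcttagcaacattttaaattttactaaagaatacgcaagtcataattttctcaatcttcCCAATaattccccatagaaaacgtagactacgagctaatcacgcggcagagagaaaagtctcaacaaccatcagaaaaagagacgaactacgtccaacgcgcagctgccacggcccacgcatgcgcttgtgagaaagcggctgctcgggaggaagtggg
Srsf2, chr11:116853095-116853344, minus strand: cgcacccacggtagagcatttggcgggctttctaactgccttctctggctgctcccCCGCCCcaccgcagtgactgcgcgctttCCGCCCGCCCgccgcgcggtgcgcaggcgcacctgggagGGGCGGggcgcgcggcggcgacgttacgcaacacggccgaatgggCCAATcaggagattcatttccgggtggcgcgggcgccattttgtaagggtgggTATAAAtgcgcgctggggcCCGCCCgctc
Srsf7, chr17:80207306-80207555, minus strand: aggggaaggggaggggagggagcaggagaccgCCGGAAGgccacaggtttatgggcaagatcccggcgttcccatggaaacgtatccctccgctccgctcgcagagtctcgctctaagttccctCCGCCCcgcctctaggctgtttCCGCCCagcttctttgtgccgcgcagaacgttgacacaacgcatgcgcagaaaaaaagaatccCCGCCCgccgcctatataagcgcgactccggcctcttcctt

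The Srsf2 window held 5 GC-box matches, 1 CCAAT box and 1 TATA box, the Srsf7 window 3 GC-box matches and 1 ETS core, Snrpd3 2 CCAAT boxes and 1 GC box, and Lsm2 1 CCAAT box. Of the 69 members, 58 had a promoter in the table. GC boxes stood in 38 of these (65.5%, against 32.9% of 27025 genes with a promoter, first listed start of each), the ETS core in 16 (27.6% against 7.05%) and the E2F core in 8 (13.8% against 3.84%). The CCAAT box stood in 26 (44.8% against 34.5%) and the TATA box in 6 (10.3% against 13.0%). Among the 9 matched members that passed the test described next, 5 held a GC box, 5 a CCAAT box, 3 an ETS core, 1 an E2F core and 2 a TATA box. The 27025 genes were not limited to genes expressed in these cells, so whether members differ from other expressed genes was not tested. These are letter matches, not bound sites.

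The median cell held 1265 unique molecular identifiers (UMIs, each a captured RNA molecule) and 821.5 genes. The HSC genes Hlf, Kit, Mecom and Procr were found in 35.9%, 31.5%, 13.1% and 11.7% of cells, Cd48 had 1 UMI in all, and Cd3e had 0. Ly6a and Slamf1, which code for the sorting markers Sca-1 and CD150, were found in only 5.52% and 2.52% of cells. Bright cells were deeper, with a median of 1692 to 1976 UMIs over plates against 991.5 to 1233 in dim cells. S phase and G2/M genes made up 1.05 to 1.53% of UMIs in bright and 0.526 to 0.665% in dim cells at 1000 UMIs per cell. In bright over dim cells 24 of 34 S phase genes tested were called higher, with a summed level of 6411 to 7592 CPM (UMIs of a gene per 1000000 UMIs of its library) in bright and 2697 to 3146 in dim cells. For G2/M genes it was 27 of 36, at 5453 to 9137 and 2283 to 2883 CPM, with 0 lower in either list. Of 12 HSC genes 5 were called lower and 0 higher, at 3021 to 3779 and 3691 to 7078 CPM. Of the B, T and NK cell list, 0 of 2 tested genes were called, and Cd3d, Cd3e, Cd3g, Cd79a, Klrd1 and Ms4a1 were at 0. Of erythroid genes 0 of 3 were called (383 to 1774 CPM in bright, 575 to 4462 in dim cells), of megakaryocyte genes 0 of 5 (486 to 837 and 298 to 576) and of endothelial genes 0 of 1 (7.37 to 108 and 24.9 to 170, Cdh5 at 0). Of 5 mast cell genes 1 had a UMI and none could be tested. Of 3 myeloid genes tested, 2 fell, with summed levels of 972 to 1098 CPM in bright and 1305 to 1714 in dim cells. The part of depth and cycling in each result below was not tested beyond the alternatives given.

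Plate 2 stood apart from the other plates over the whole table. Of 1432 genes with at least 300 UMIs, 93 were in plate 2 at under 0.5 times the median of the other plates, against 4, 4 and 2 genes in plates 3, 4 and 5. Among the 33 members at that depth, this was so for Hnrnpc, which binds nascent transcripts, and Sf3b3, a scaffold of the SF3b complex. Hnrnpc had 78.6 CPM in plate 2 against 333, 343 and 305 in plates 3 to 5. Sf3b3 had 33.1 CPM against 207, 192 and 181. Below 300 UMIs, Srek1ip1, a regulator of an SR-related protein, had 10.3 CPM against 101, 56.2 and 76.3. The Sm gene Snrpg had 16.5 against 91.6, 89.1 and 63.9. Lsm6 (35.1 against 91.6, 83.3 and 71.0) and Lsm3 (10.3 against 29.3, 31.0 and 23.1) were under 0.5 times too. Lsm14b and Sugp2 went the other way, at 2.10 and 2.07 times the median of the other plates. The limits of 300 UMIs and 0.5 times were chosen after seeing the data, and the cause was not tested. Values without plate 2 are given for the called members, the main counts of called members and the family ratios, and for other named members where they move by over 1.5 times.

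**Figure D1:**
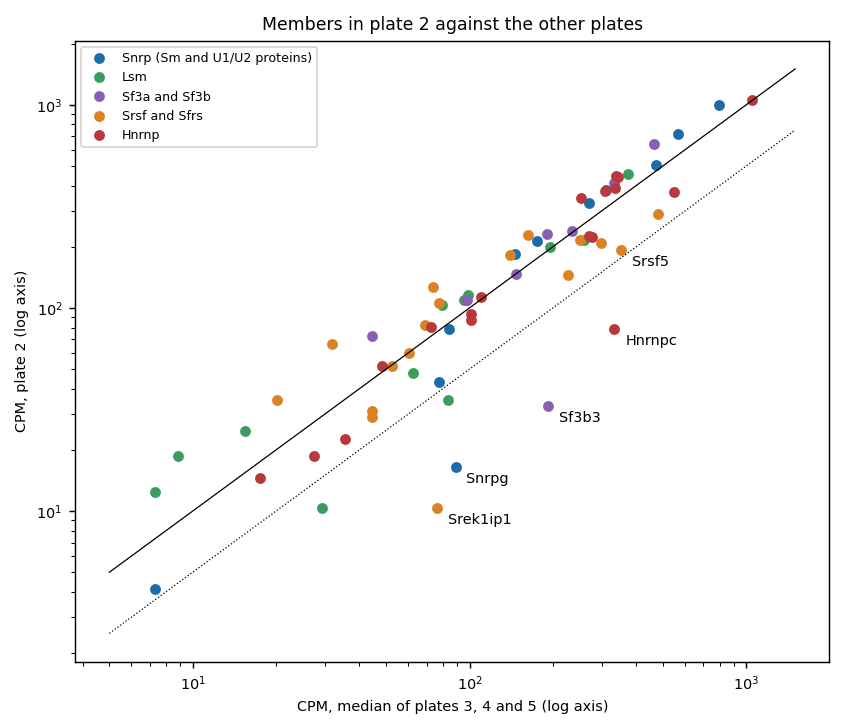
CPM of each member over all cells of plate 2 (vertical, log axis) against the median of plates 3, 4 and 5 (horizontal, log axis), coloured by family. Members on the solid line are equal and those under the dotted line are below 0.5 times. Hnrnpc, at 78.6 CPM in plate 2, Sf3b3, Snrpg and Srek1ip1 lie far under the dotted line. Lsm3 and Lsm6 also lie under it, while most members follow the solid line. Lsm5, Snrpb2 and Srsf13b are at 0 on an axis and are not drawn.

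As a whole the members took up a similar part of each plate. Their summed level was 13199, 12779, 13290 and 13238 CPM in plates 2, 3, 4 and 5, with exact Poisson 95% intervals (counting error only) of 12878 to 13527, 12481 to 13083, 12977 to 13608 and 12939 to 13542. The families did not all share this evenness. Snrp genes summed to 3469 CPM in plate 2 and to 2929 to 3070 in the others, while Srsf genes summed to 2061 in plate 2 and to 2360 to 2527 in the others. The median member differed 1.43-fold between its highest and lowest plate, against 1.56-fold over the 4652 genes tested.

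Some splicing genes were higher in CFP-bright than in dim HSCs, and the Sm gene Snrpd1 kept its call in the most alternatives. Of the 69 members, 55 had enough UMIs to be tested and 14 did not. In bright over dim cells 11 members rose and 1 fell (edgeR adjusted p under 0.05; 17 at an unadjusted p under 0.05). The member that fell, Sugp2, was not tested under the filter first run, on fractions alone. Over all tested genes, 9.05% were called, 5.61% higher and 3.44% lower. Over the tested members the log2 fold change had a median of 0.30, against -0.03 over all tested genes, and 43 of 55 were above 0, against 47.8% of all genes. Without plate 2, 8 members were called, all higher, when 8.21% of all tested genes were called (5.17% higher, 3.03% lower). These 8 were 7 of the 12, with Hnrnpl added (0.72 ± 0.23, edgeR adjusted p = 0.0281; 0.43 ± 0.20 with plate 2). The filter lets a member through on its fullest libraries, so these counts describe the tested members and not the whole list.

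**Figure D2:**
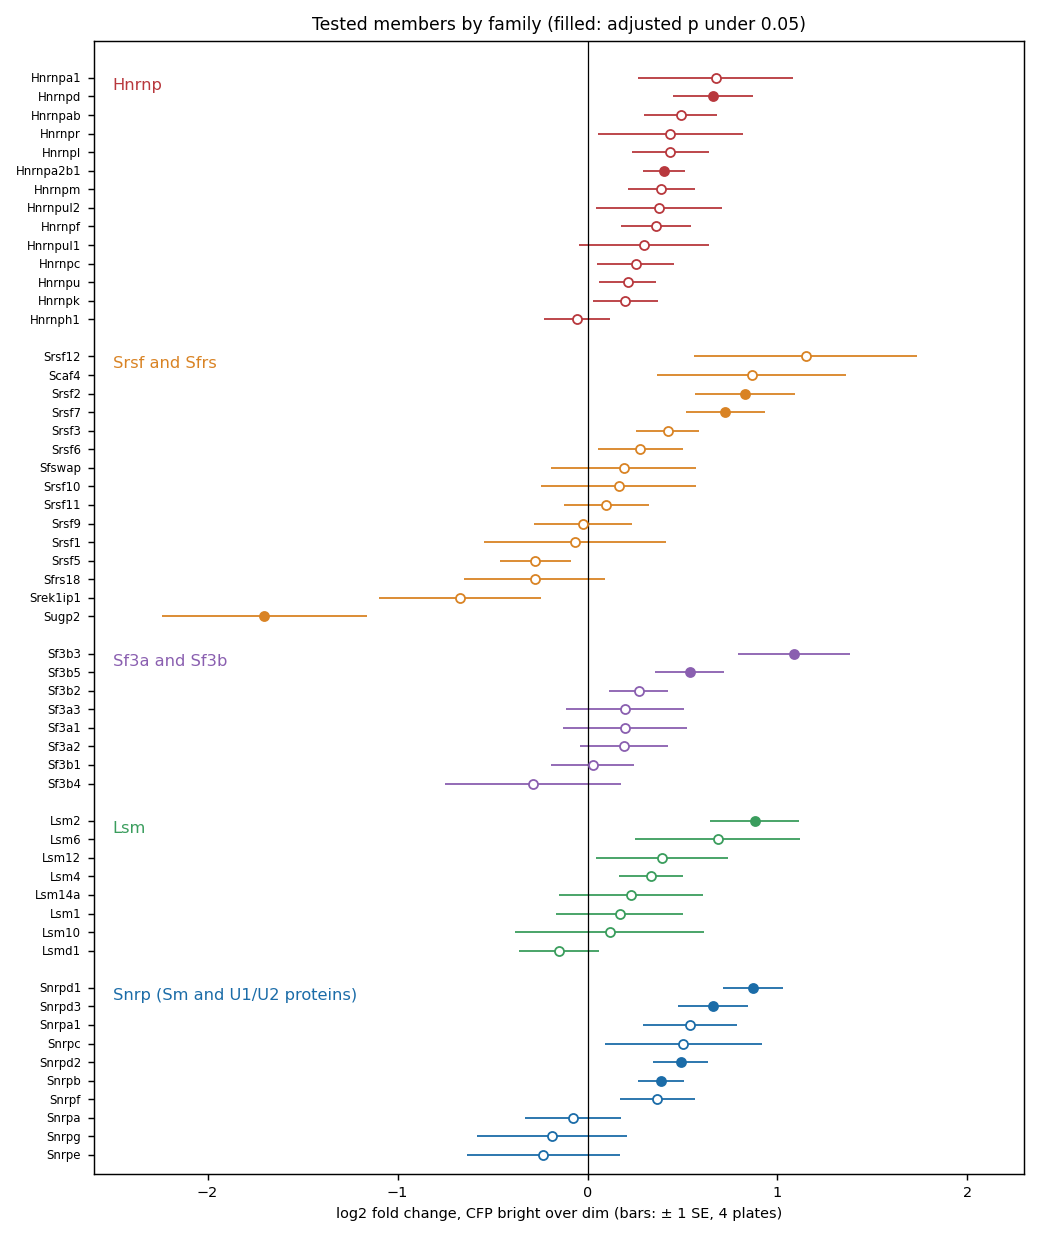
Log2 fold change of each tested member in CFP-bright over dim cells (horizontal), grouped by family, with ± 1 SE derived from the edgeR F statistic (4 plates). Filled points are the 12 members that passed, and 43 of 55 points lie to the right of 0, including all Hnrnp genes except Hnrnph1.

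Among Snrp genes 4 of 10 tested rose and none fell (median 0.44), against 5.61% higher and 3.44% lower over all tested genes. All 4 code for Sm ring proteins. Snrpd1, which codes for SmD1, had 715, 676, 708 and 621 CPM in bright cells of plates 2, 3, 4 and 5, 430, 352, 395 and 416 in intermediate cells, and 385, 340, 367 and 372 in dim cells. Every bright plate lay above every intermediate and dim plate. Snrpd1 rose by 0.87 ± 0.16 (SE; edgeR adjusted p = 4.6e-06), and by 0.89 ± 0.18 without plate 2 (adjusted p = 6.5e-05).

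Its ring partner Snrpd3 (SmD3) had 516, 477, 319 and 351 CPM in bright and 286, 270, 236 and 244 in dim cells, with no overlap between the groups. It rose by 0.66 ± 0.18 (edgeR adjusted p = 0.0081), and the call was lost without plate 2 (0.61 ± 0.22, adjusted p = 0.0576). Plates 2 and 3 held the highest bright values.
Snrpb (SmB) had 1157, 935, 887 and 1013 CPM in bright and 833, 681, 707 and 795 in dim cells. All bright plates were above all dim plates here too. Snrpb rose by 0.39 ± 0.12 (edgeR adjusted p = 0.0231), with 0.37 ± 0.14 and an adjusted p of 0.0842 without plate 2.
Snrpd2 (SmD2) had 892, 676, 676 and 562 CPM in bright and 559, 376, 602 and 436 in dim cells. Its groups overlapped, since bright cells of plate 5 were below dim cells of plate 4, although bright was above dim within each plate. It rose by 0.49 ± 0.15 (edgeR adjusted p = 0.0148), with 0.44 ± 0.17 and an adjusted p of 0.0971 without plate 2.

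The other Sm genes did not pass. Snrpf was at 0.37 ± 0.20, Snrpe at -0.23 ± 0.40 (-0.39 without plate 2) and Snrpg at -0.19 ± 0.39 (0.04 without plate 2), the last 2 on only 141 and 140 UMIs in all. The U2 partner Snrpa1 was at 0.54 ± 0.25 (edgeR adjusted p = 0.172), and the U1 proteins Snrpa and Snrpc were at -0.08 ± 0.25 and 0.50 ± 0.41 (-0.17 and 0.94 without plate 2). Snrpn and Snrpb2, with 15 and 6 UMIs, were not tested. Several Sm genes, among them Snrpe and Snrpg, have processed pseudogenes, and Snrpn codes for a near-identical copy of SmB; how reads from such copies were assigned is not stated, so their counts are uncertain.

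Of the Lsm genes 1 of 8 tested rose and 0 fell, with a median of 0.28. Over all tested genes 5.61% were called higher and 3.44% lower. Lsm2, a subunit of the ring on U6 RNA and of the cytoplasmic ring in mRNA decay, had 228, 318, 325 and 269 CPM in bright and 87.0, 164, 183 and 180 in dim cells. The groups did not overlap. Lsm2 rose by 0.88 ± 0.23 (edgeR adjusted p = 0.0046) and by 0.78 ± 0.25 without plate 2 (adjusted p = 0.0287). Lsm4, of the same rings, was at 0.33 ± 0.17 and Lsm1, which marks the cytoplasmic ring, at 0.17 ± 0.34, with the latter at -0.08 without plate 2. Lsmd1 was at -0.15 ± 0.21. Lsm3, Lsm5, Lsm7, Lsm11 and Lsm14b, with 1 to 50 UMIs, were not tested.

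Of the 8 Sf3a and Sf3b genes, all tested, 2 rose and 0 fell, with a median of 0.20. Over all tested genes 5.61% were called higher and 3.44% lower. Sf3b3 had 59.0, 272, 211 and 263 CPM in bright and 0, 93.9, 183 and 103 in dim cells. Bright was above dim in each plate, but plate 2 lay far under the others in every fraction and the groups overlapped. Sf3b3 rose by 1.09 ± 0.29 (edgeR adjusted p = 0.0055) and by 0.99 ± 0.29 without plate 2 (adjusted p = 0.0124).
Sf3b5, a small SF3b subunit, had 413, 331, 459 and 439 CPM in bright cells of plates 2 to 5 and 385, 258, 262 and 218 in dim cells. The groups overlapped through the high dim value of plate 2. Sf3b5 rose by 0.54 ± 0.18 (edgeR adjusted p = 0.0392) and by 0.73 ± 0.22 without plate 2 (adjusted p = 0.0135).
Sf3b1, the branch-point clamp, had 236, 199, 268 and 205 CPM in bright and 273, 199, 210 and 192 in dim cells. These values overlap throughout, and its log2 fold change was 0.03 ± 0.22 (edgeR adjusted p = 0.968), with 0.14 ± 0.26 without plate 2. Sf3b2 was at 0.27 ± 0.15 and Sf3a2 at 0.19 ± 0.23 (0.17 and 0.52 without plate 2), and neither passed.

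Of 15 tested Srsf and Sfrs entries 2 rose and 1, Sugp2, fell, against 5.61% higher and 3.44% lower over all tested genes. Their median was 0.16. Srsf2 (SC35), an SR protein of nuclear speckles, had 221, 212, 236 and 240 CPM in bright, 164, 126, 102 and 73.0 in intermediate and 174, 106, 78.6 and 154 in dim cells. All bright plates were above all others, and the intermediate and dim plates overlapped. Srsf2 rose by 0.83 ± 0.26 (edgeR adjusted p = 0.0267) and by 1.03 ± 0.31 without plate 2 (adjusted p = 0.0171).
Srsf7, which also acts in mRNA export, had 265, 338, 472 and 287 CPM in bright and 211, 293, 170 and 128 in dim cells. The groups overlapped, and plates 4 and 5 held the widest gaps. Srsf7 rose by 0.73 ± 0.21 (edgeR adjusted p = 0.0095) and by 0.86 ± 0.23 without plate 2 (adjusted p = 0.0049).
Sugp2, a G-patch protein with an older SR-like name, had 36.8, 26.5, 0 and 35.1 CPM in bright and 124, 46.9, 91.7 and 64.1 in dim cells, without overlap. These values rest on 15 and 26 UMIs, and on 87 UMIs in all cells. Sugp2 fell by 1.70 ± 0.54 (edgeR adjusted p = 0.0255), and the call was lost without plate 2 (-1.68 ± 0.72, adjusted p = 0.141). By CPM its fullest libraries were dim cells of plates 2 and 4, and the filter lets a member through on its fullest libraries. Sugp2 was not tested under the filter first run, on fractions alone, so its call depends on the filter taken later.

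Srsf3, which regulates splicing and export, was at 0.42 ± 0.16 (edgeR adjusted p = 0.0940) and did not pass. Srsf5 was at -0.28 ± 0.19 and Srsf11 at 0.10 ± 0.22 (0.23 without plate 2). Srsf1, the prototype SR protein, was at -0.06 ± 0.48 (-0.33 without plate 2) on 108 UMIs, an error wide enough for a difference of either sign. Srsf4, Clasrp and Srsf13b were not tested.

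Of 14 tested Hnrnp genes 2 rose and 0 fell, against 5.61% higher and 3.44% lower over all tested genes. Yet 13 lay above 0, against 47.8% of all tested genes, with a median of 0.38. Hnrnpa2b1, which binds and sorts many mRNAs, had 1120, 1233, 1199 and 1264 CPM in bright and 982, 1080, 838 and 705 in dim cells. The groups did not overlap. Hnrnpa2b1 rose by 0.40 ± 0.11 (edgeR adjusted p = 0.0074) and by 0.49 ± 0.13 without plate 2 (adjusted p = 0.0032).
Hnrnpd (AUF1), known for binding AU-rich elements in mRNA, had 332, 278, 351 and 281 CPM in bright and 124, 223, 223 and 205 in dim cells. The groups did not overlap, and the lowest dim value was that of plate 2. Hnrnpd rose by 0.66 ± 0.21 (edgeR adjusted p = 0.0275), and the call was lost without plate 2 (0.48 ± 0.24, adjusted p = 0.214).
The matrix-binding Hnrnpu was at 0.21 ± 0.15, the poly(C)-binding Hnrnpk at 0.20 ± 0.17 and Hnrnpm at 0.39 ± 0.18, and none passed. Hnrnpa1 (165 UMIs, 0.67 ± 0.41, and 0.37 without plate 2) has many processed copies in the genome, so its counts are uncertain. Hnrnpa0, Hnrnpa3, Hnrnph2 and Hnrnph3 were not tested.

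**Figure D3:**
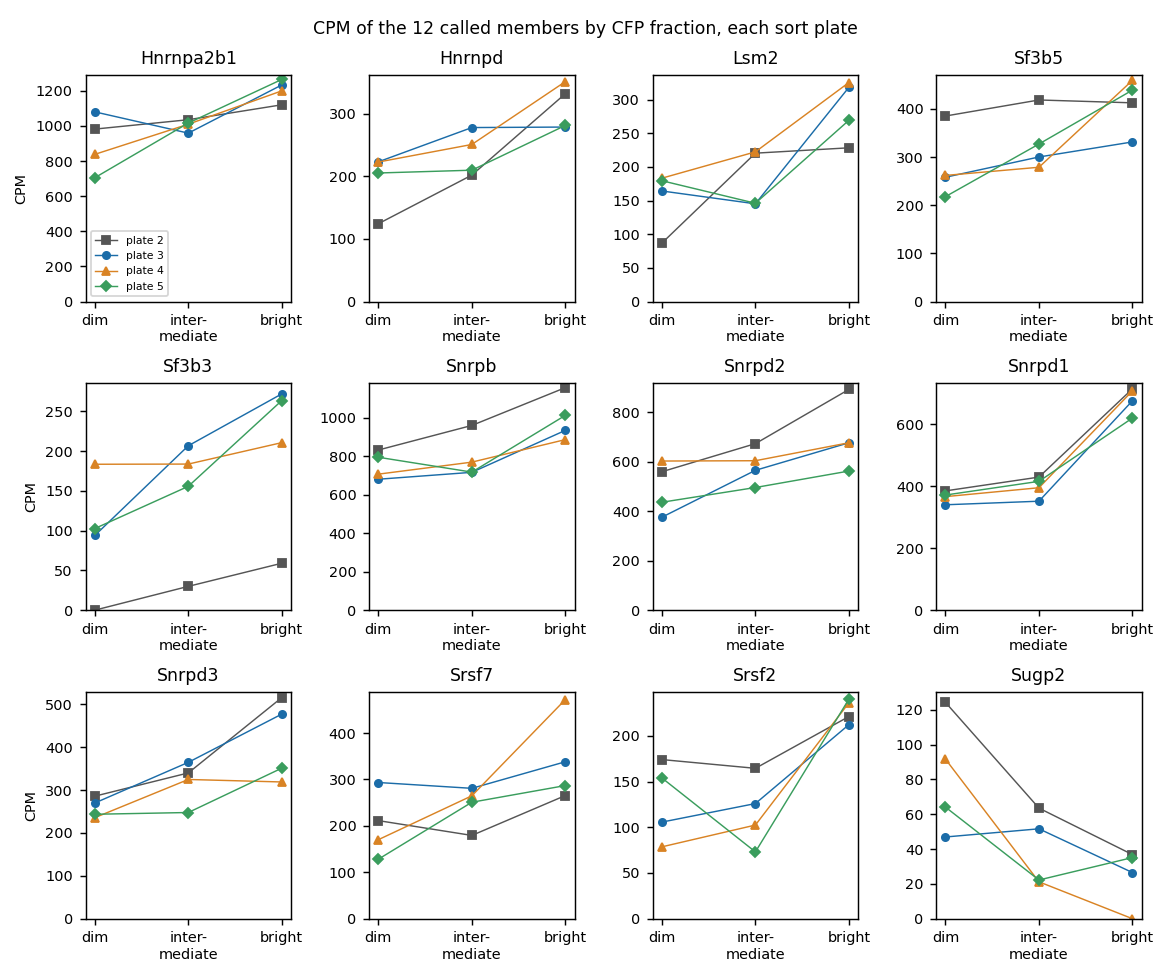
CPM (vertical, from 0) of the 12 members that passed in bright over dim cells, by CFP fraction (horizontal), 1 line per sort plate. Snrpd1 and Srsf2 step up between intermediate and bright cells in all 4 plates, Sf3b3 lies low in plate 2, and Sugp2 falls from 46.9 to 124 CPM in dim to 0 to 36.8 in bright cells.

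Ranges of single plates give a plainer view of the same comparison. For 8 tested members the 4 bright values were all above the 4 dim values, which held for 6.04% of all tested genes: Snrpd1, Snrpd3, Snrpb, Lsm2, Lsm12, Srsf2, Hnrnpd and Hnrnpa2b1. For 1 member, Sugp2, which was not tested under the filter first run, they were all below, against 2.58% of tested genes. Summed over all 69 members, bright cells held 14937, 14870, 14610 and 15254 CPM and dim cells 12118, 11631, 12088 and 10848. Intermediate cells, at 12643, 12077, 12883 and 12736, overlapped with dim but not with bright cells. From bright through intermediate to dim cells, the Snrp sum was 3761 ± 338, 2906 ± 225 and 2684 ± 217 CPM (SD over 4 plates), and the Hnrnp sum 5175 ± 281, 4416 ± 230 and 4056 ± 84.9. Srsf sums overlapped between all fractions (2555 ± 389, 2279 ± 187 and 2222 ± 141).

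In bright over intermediate cells 5 members were called higher and 0 lower, where 8.77% of all tested genes were called (5.42% higher, 3.35% lower). Without plate 2 it was 4 members higher and 0 lower, in a fit of 4485 genes whose share called is not given here. The 5 were Srsf2 (0.97 ± 0.20, edgeR adjusted p = 8.4e-05), Snrpd1 (0.75 ± 0.12, 3.6e-07), Lsm2 (0.63 ± 0.17, 0.0041), Srsf7 (0.45 ± 0.15, 0.0342) and Snrpb (0.32 ± 0.10, 0.0288). In intermediate over dim cells 0 members were called by edgeR and 0 by DESeq2, with 3 at an unadjusted p under 0.05, and 0.0215% of all tested genes passed; without plate 2 it was 0 members too. These comparisons share the intermediate cells, and the difference between them was not tested. No test of a trend was run.

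Ranked in 5 equal steps of CFP, the summed members were at 11679 ± 579, 12273 ± 361, 12368 ± 640, 12946 ± 611 and 14940 ± 243 CPM from the dimmest to the brightest step (SD, n = 4 plates). The 4 lower steps overlapped with their neighbours, and the brightest lay above all of them in every plate. Per family, the log2 ratio of the brightest over the dimmest step was 0.49 ± 0.04 for Snrp, 0.35 ± 0.28 for Lsm, 0.35 ± 0.16 for Sf3a and Sf3b, 0.35 ± 0.09 for Hnrnp and 0.19 ± 0.28 for Srsf (SD over 4 plates), the last with plates from -0.10 to 0.51. Without plate 2 these were 0.48, 0.27, 0.38, 0.37 and 0.29, and the Srsf ratio was 0.09 without plate 5 and 0.31 at equal UMIs.

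**Figure D4:**
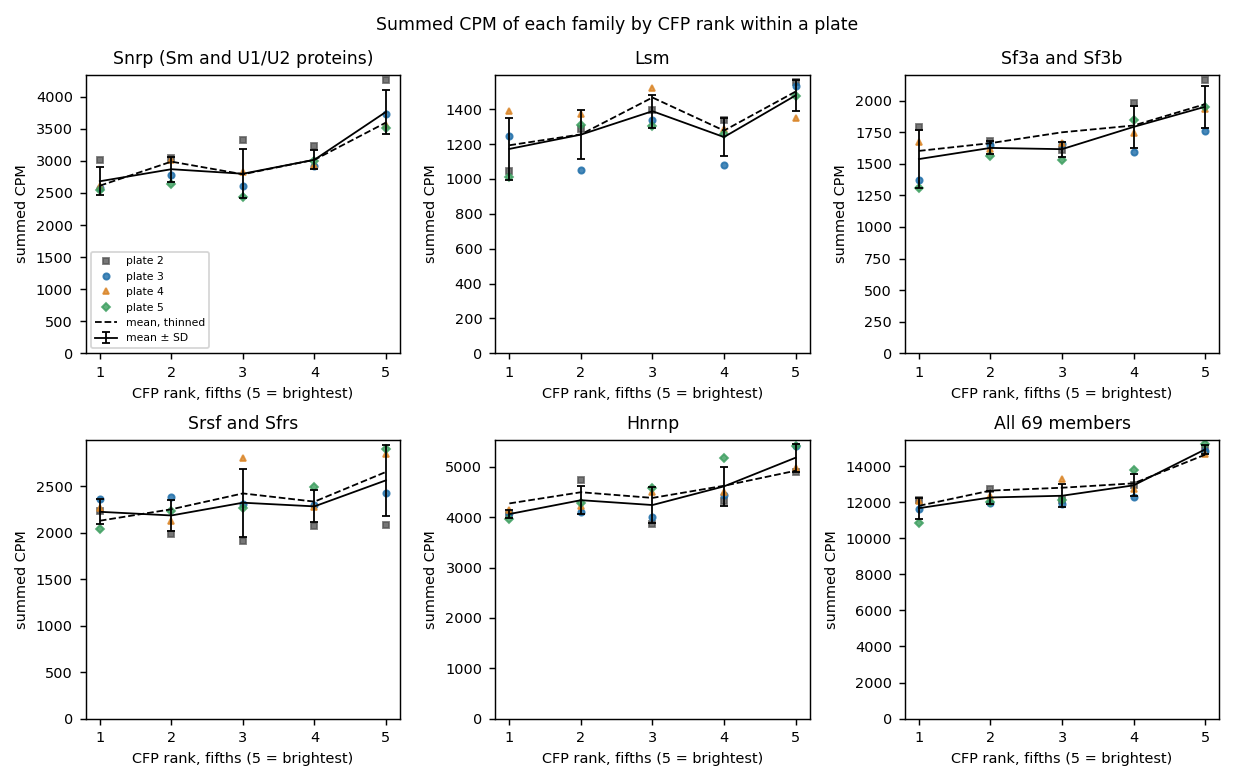
Summed CPM of each family (vertical, from 0) by CFP rank in 5 steps within a plate (horizontal). Points are plates, the solid line is the mean ± SD of 4 plates and the dashed line the mean at 1000 UMIs per cell; the sum of all members goes from 11679 CPM in the dimmest to 14940 CPM in the brightest step.

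Depth and cycling were unequal between the fractions, so the comparison was repeated at equal UMIs per cell. Thinned to 1000 UMIs, with shallower cells left out (255 bright, 611 intermediate and 159 dim cells remained), 3 of 35 tested members rose and 0 fell, and 4.29% of all tested genes were called (2.97% higher, 1.32% lower). Snrpd1 rose by 1.09 ± 0.23 (edgeR adjusted p = 0.00071), Srsf7 by 1.34 ± 0.31 (0.0023) and Hnrnpab, an AU-rich element binding member, by 0.89 ± 0.28 (0.0479). A second draw of the thinned UMIs, with 2120 genes tested, left Snrpd1 alone, and its share called over all genes is not given here. Without plate 2, Snrpd1 and Srsf7 kept their calls and Hnrnpab was at 0.76 (edgeR adjusted p = 0.241). The 35 members had a median of 0.34 at equal UMIs and 0.36 with all cells, against -0.02 over the 2121 genes tested. At equal UMIs all members summed to 14612 ± 154 CPM in bright cells, to 12871 ± 620 in intermediate ones and to 11811 ± 304 in dim ones, and bright did not overlap with the others. In bright over intermediate cells 2 members were called at equal UMIs, where 4.05% of tested genes were (2.69% higher, 1.37% lower). For Hnrnp genes the log2 ratio of the brightest over the dimmest step was 0.20, against 0.35 with all cells, with plates from -0.01 to 0.40.

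Other ways of evening out the cells ended most calls, over all genes as well as among the members. With bright and dim cells matched on UMIs (134 cells each), 0 of 29 tested members passed, and their median was 0.12 against 0.37 for the same members with all cells; Snrpd1 was at 0.58 (adjusted p = 0.245). Of the 1025 cells with at least 1000 UMIs, the 20% with the largest S and G2/M share in each plate were left out next, and 820 remained. Here Snrpd1 alone passed, of 36 tested, with 0.91 ± 0.21 (adjusted p = 0.0208), and the median was 0.22 against 0.36. In these settings 33 of 1274 and 22 of 2058 tested genes were called, against 421 of 4652, on fewer cells. Calls were thus lost over all genes, and the counts do not set the members apart.

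The index record also gives each cell a whole number from 1 to 10, with no meaning stated and by a method that is not stated. If the numbers were made from the cells' genes, the genes are not independent of them, so the groups are described with no test. Group 1, with 10 cells, was left out.

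Taken as a sum, splicing genes had their highest share in group 9 (188 cells). In the Lsm family group 6 had the highest value, with a counting interval that covers group 9. Summed over all members the groups 2 to 10 held 10468, 11597, 11616, 12006, 12459, 12168, 14386, 16188 and 13355 CPM. Group 9 lay between 15695 and 16863 in the 4 plates, above every plate of every other group. Groups 2 to 7 had S and G2/M shares of 0.488 to 0.650% at 1000 UMIs per cell and median UMIs of 974 to 1246. Group 8 had 1.08% and 1433 UMIs, group 9 1.47% and 2341, and group 10 2.32% and 1459, so depth and cycling moved with the share up to group 9, and their part in it was not tested. Group 10 had the largest cycling share and a splicing share below group 9 in every plate, and its plates overlapped with those of group 8. At 1000 UMIs per cell the sums were 10712, 11955, 11755, 12209, 13222, 12672, 14610, 16135 and 12600 CPM, with the same group highest. Without plate 2 group 9 was at 16424 CPM, and groups 8 and 10 at 14721 and 13377. In UMIs per cell the members went from 10.8 in group 2 to 40.1 in group 9 and 24.7 in group 10, a quantity that also carries the total UMIs of a cell.

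**Figure D5:**
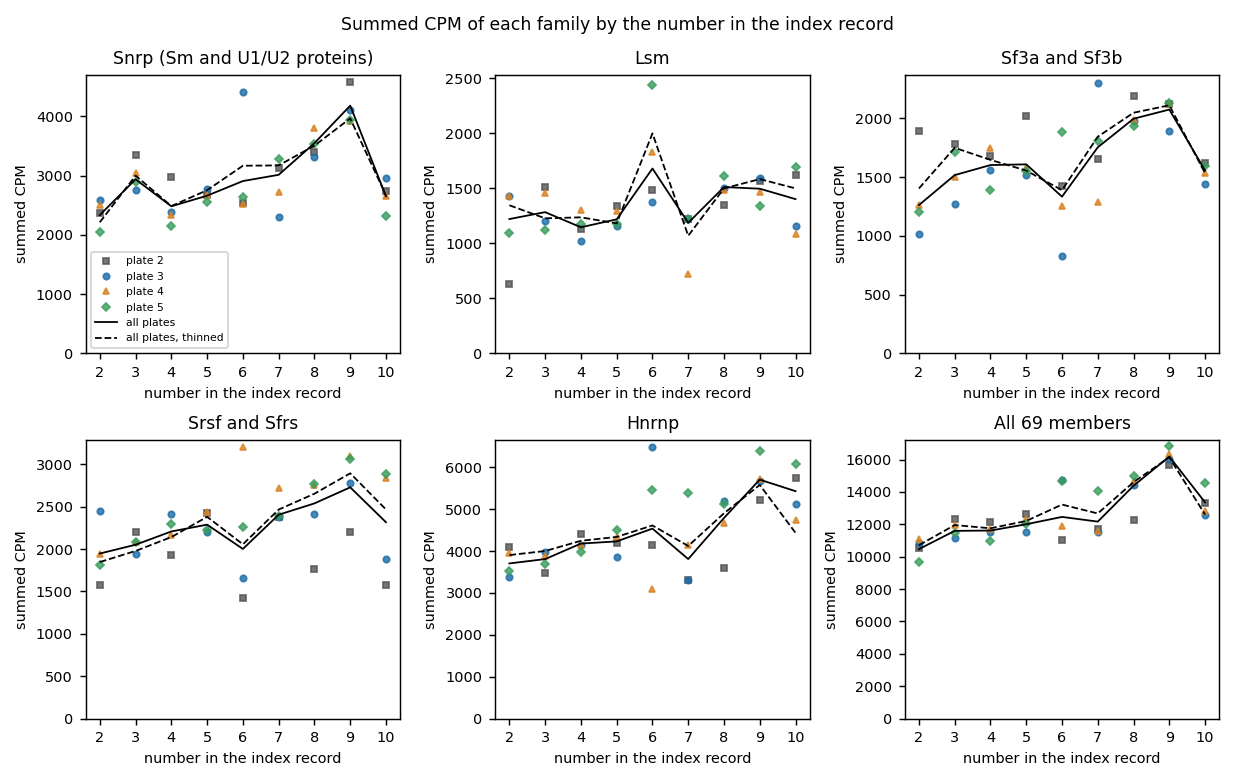
Summed CPM of each family (vertical, from 0) by the whole number of the index record (horizontal). Points are plates (groups 6, 7 and 10 have as few as 5 to 7 cells in a plate), the solid line pools all plates and the dashed line the cells at 1000 UMIs; all members peak at 16188 CPM in group 9.

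Families differed in group 10. Snrp genes were at 4182 CPM in group 9 and at 2651 in group 10 (plates 3931 to 4581 and 2314 to 2962, with no overlap), near the 2334 to 2937 of groups 2 to 5. Hnrnp genes were at 5705 and 5430 CPM in groups 9 and 10, against 3704 to 4230 in groups 2 to 5, but at equal UMIs group 10 was at 4433, on 30 cells. Sf3a and Sf3b genes were at 2076 in group 9 and 1557 in group 10, also without overlap of plates. Srsf genes differed between plates, with plate 2 at 2204 in group 9 and the other plates at 2779 to 3092. Lsm genes were highest in group 6, at 1681 CPM (2000 at equal UMIs) on 33 cells, and were at 1512 in group 8, 1497 in group 9 and 1402 in group 10.

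Groups 9 and 10 together were set against groups 2 to 5. The log2 ratio of the summed members was 0.44 ± 0.09 (SD, n = 4 plates), 0.40 ± 0.10 at equal UMIs and above 0 in 4 of 4 plates. It was 0.58 ± 0.04 for Snrp, 0.47 ± 0.13 for Hnrnp, 0.34 ± 0.11 for Sf3a and Sf3b, 0.32 ± 0.21 for Srsf and 0.30 ± 0.18 for Lsm. Without plate 2 the sum was at 0.47 and these families at 0.58, 0.52, 0.39, 0.40 and 0.26. Of the 55 tested members 13 were at least 1.5 times higher and 1 at least 1.5 times lower, against 13.3% and 11.6% of all tested genes, with 16 and 2 without plate 2 (14.4% and 13.7%). In 46 of 55 the ratio was above 1, against 51.1% of tested genes, and in 28 of 55 it was so in every plate, against 18.3%. The 1.5-fold limit was chosen after seeing the data.

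Snrpd1 had the highest ratio of the tested members. It had 756, 702, 702 and 663 CPM in groups 9 and 10 of plates 2 to 5 and 343, 331, 347 and 319 in groups 2 to 5, a log2 ratio of 1.09 (1.20 at equal UMIs) with no overlap. By group it went from 231 CPM in group 2 to 621 in group 8, 733 in group 9 and 566 in group 10.
Srsf2 followed, with 225, 257, 281 and 173 CPM against 151, 106, 76.0 and 118, a log2 ratio of 1.08, again with no overlap. Within the pair of groups it was high in group 9 (253 CPM) and not in group 10 (103 CPM).
Snrpa1, of the U2 snRNP, had 312, 223, 223 and 316 CPM against 172, 131, 163 and 112, a ratio of 0.96, and the same split between group 9 (302) and group 10 (103).

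Srsf1 was at a ratio of 0.95 and Hnrnpul1, an hnRNP U relative, at 0.95, each above in 4 of 4 plates. Hnrnpf, which binds G-rich RNA, was at 0.79, Lsm2 at 0.78, Lsm12 at 0.66 (3 of 4 plates; 0.43 without plate 2), Sf3b5 at 0.58 and Sf3b3 at 0.51. In group 10 Hnrnpul1 was at 193 CPM, on 15 UMIs, and Hnrnpf at 489, but at equal UMIs they were at 33.3 and 433, on 30 cells. At equal UMIs Hnrnpul1 was at 190 in group 7 (58 cells) and Hnrnpf at 444 in group 6 (18 cells). These values rest on few UMIs, so their order is uncertain. Sf3b3 was at 0.13 at equal UMIs and at 0.74 without plate 2.

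The lowest ratios in each family were mostly near 0. Snrpa was at 0.20, Snrpg at 0.14 (0.38 without plate 2), Hnrnpk at 0.15, Hnrnpc at -0.09 (0.20 without plate 2, -0.46 at equal UMIs), Sf3b1 at 0.14 (0.24 without plate 2), Sf3a3 at -0.04 and Lsmd1 at -0.03 (0.03 and 0.01 without plate 2), and Lsm10 at -0.18 (0.70 at equal UMIs, -0.40 without plate 2). Sugp2 was at -0.41 (0.39 at equal UMIs, -0.71 without plate 2). Srek1ip1 stood apart from them, with 5.8, 42.8, 8.3 and 60.3 CPM in groups 9 and 10 against 10.4, 116, 86.9 and 82.2 in groups 2 to 5. It was lower in 4 of 4 plates, with a log2 ratio of -1.55 (-0.94 at equal UMIs, -1.34 without plate 2) on 132 UMIs in all, and in bright over dim cells it was at -0.67 ± 0.43 (edgeR adjusted p = 0.386, not called), with 0 UMIs in both fractions of plate 2.

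Other splicing genes outside the name rule were counted in the same fit of bright over dim cells. Of 80 tested genes of further snRNP and spliceosome core proteins, 3 rose and 0 fell, a share below the 5.61% called higher over all tested genes, and the median was 0.10. These were Prpf4 of the U4/U6 particle (1.59 ± 0.48, edgeR adjusted p = 0.0158), the isomerase gene Ppil1 (1.24 ± 0.41) and Smn1, whose protein loads Sm rings onto snRNA (1.11 ± 0.36). Of 48 tested hnRNP-like genes and splicing regulators, 6 rose and 0 fell, and the median was 0.26. Among them were Raly, an hnRNP C relative (1.01 ± 0.34), the exon junction genes Rnps1 (0.97 ± 0.31) and Eif4a3 (0.81 ± 0.21), and Sfpq (0.65 ± 0.22). The cold-shock domain genes Ybx1 (0.79 ± 0.11) and Csda (0.71 ± 0.13) rose too, whose products are known as much for binding mRNA in the cytoplasm. At equal UMIs the counts were 0 of 49 and 3 of 31 higher, against 2.97% of all genes tested there.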

How the data were processed

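Per the labels' protocols, HSCs were index sorted 1 to a well, reverse transcribed with barcoded primers, pooled, amplified and sequenced. The authors deposited raw UMI counts per gene and well, of which 1430 of 1536 wells had an index record (at least 511 UMIs each); the aligner, build and counting step were not given in the sources used here. Per the values, the deposited CFP readings look like log10 values of whole channel numbers; here they serve only to rank cells of the same plate. Members and lists were chosen with earlier results of these data known.

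UMIs were summed per plate and CFP fraction (dim libraries 76354 to 85201, intermediate 267573 to 314856, bright 135701 to 170837 UMIs) and tested by edgeR 4.0.16 under R 4.3.3 (design-based filterByExpr, TMM, quasi-likelihood test, plate as a block, Benjamini-Hochberg over 4652 genes, threshold 0.05). The filter was first run on the fractions alone (3836 genes, 387 called, 11 members higher and 0 lower); the design-based filter was taken after that result had been seen. Residual degrees of freedom were 6 and prior degrees of freedom 276.4. Each SE was the absolute log2 fold change divided by the square root of the F statistic. It therefore rests largely on a spread shared over genes, not on that of 1 gene over 4 plates. The same mice may stand behind several plates: p-values rest on the spread between 4 plates and over genes, not between mice, and a stricter reading takes the table as 1 sample with no test. The same cells of a plate give all 3 fractions, so the plates pair the libraries, and the block is part of the fit. CPM are UMI counts per 1000000 UMIs of the library. No doublet caller was run, since wells were filled singly.

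Genes named are all members called in bright over dim, the 4 with the most UMIs per family, and the 2 highest and 2 lowest ratios per family between groups 9 and 10 and groups 2 to 5; further members (such as Hnrnpab, Snrpf, Snrpe, Snrpc, Hnrnpa1 and Lsm3) were named after their values were seen. Of 2 other lists, the 3 highest and 3 lowest called fold changes are named. Alternatives were DESeq2 1.42.0, no TMM, no filter, no block, each plate left out, matched UMIs, cycling cells left out, 30% fractions, cells of at least 1000 UMIs, thinning, another denominator, and, chosen after seeing the data, reversed ties and the filter on fractions alone. Scripts were tested on simulated data.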

Additional observations from a re-analysis of the deposited data

Results flagged for a closer look

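In 123 groups of 4 plates looked at (35 named members and 6 sums, in 3 fractions), 6 had 1 plate far from the other 3; chance alone flags about 1 in 20 groups. Of these, 5 were in plate 2, the plate that stood apart. In intermediate cells of plate 2, Hnrnpc had 89.7 CPM against 313 to 321 in the other plates, Srsf3 had 284 against 431 to 433, and Srsf5 had 194 against 364 to 391. In dim cells of plate 2, Lsm1 had 62.1 CPM against 103 to 106, and the Snrp sum was 3008 against 2552 to 2606. Hnrnpf in bright cells of plate 4 had 262 CPM against 404 to 431.

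The 106 wells with no index record, which entered no comparison and held at most 502 UMIs each, had members at 11010 CPM (276 UMIs), against 13123 CPM in the recorded cells.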

How the results depend on the processing

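The number of members called in bright over dim cells depended strongly on the fit, more than their direction did. Against 12 as reported, 1 was called by DESeq2, 0 when matched on UMIs, 1 without the most cycling cells, 3 thinned to 1000 UMIs, 7 with 30% fractions and 5 to 8 when 1 plate was left out (8 without plate 2, 6 without plate 3, 7 without plate 4, 5 without plate 5). With no replicate block, that is without pairing the libraries of a plate, 1 member and 125 genes were called, against 421 genes with it; that fit called 2 members and 85 genes in bright over intermediate, 0 genes in intermediate over dim, and 1 member and 26 genes at equal UMIs. Genes called in bright over dim numbered 211 by DESeq2, 33 of 1274 tested when matched on UMIs and 22 of 2058 without the cycling cells. They numbered 260 of 4639 with cells of at least 1000 UMIs, 91 of 2121 thinned and 257 to 368 without 1 plate.

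For bright over intermediate (408 genes, 5 members), the counts of genes and members were 158 and 2 by DESeq2, 15 and 0 matched, 10 and 0 without the cycling cells, 267 and 3 with 30% fractions, and 86 and 2 thinned; 3 members were called with cells of at least 1000 UMIs, and leaving out 1 plate gave 237 to 331 genes and 2 to 4 members. For intermediate over dim (1 gene), 20 genes were called with no filter, 3 matched, 0 without the cycling cells, 0 with 30% fractions, 0 thinned and 1 to 3 without 1 plate. At equal UMIs (91 genes, 3 members), DESeq2 called 37 genes, a second draw called 1 member, and leaving out 1 plate gave 46 to 86 genes and 1 to 2 members. The filter on fractions alone called 387 genes and 11 members in bright over dim; Sugp2 was not tested there.

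Snrpd1 kept its call in 14 of 15 alternatives; 9 other called members lost theirs in 6 to 10 of 15, Srsf2 in 8 of 14 and Sugp2 in 5 of 10. No called member changed sign in any alternative run. Signs did change for members that were not called: without the cycling cells Hnrnpf was at -0.15, Hnrnpk at -0.19, Hnrnpu at -0.12, Sf3a3 at -0.25 and Srsf11 at -0.28. Matched on UMIs, Hnrnpk was at -0.063, Hnrnpu at -0.26, Sf3a2 at -0.11, Sf3b1 at -0.68, Srsf11 at -0.64 and Snrpa at 0.098. Thinned, Hnrnpk was at -0.10, Hnrnpu at -0.27, Sf3a2 at -0.073, Sf3b1 at -0.065 and Srsf11 at -0.057. With 30% fractions, Hnrnpul1 was at -0.14, Sf3b1 at -0.069, Snrpa at 0.18, Snrpg at 0.085 and Srsf1 at 0.19. With cells of at least 1000 UMIs, Snrpg was at 0.073 and Srek1ip1 at 0.61; with no filter, Snrpa was at 0.063 and Srsf1 at 0.070; with reversed ties Srsf1 was at 0.057. With no filter the median over all tested genes moved from -0.03 to 0.11, and that of the members from 0.30 to 0.44. With 1 plate left out, signs changed within the ranges of Lsm1 (-0.076 without plate 2 to 0.39), Sf3a3 (-0.068 without plate 2 to 0.57), Snrpg (-0.35 to 0.044 without plate 2), Snrpa (-0.17 to 0.12 without plate 3), Srsf1 (-0.33 to 0.33 without plate 3), Sf3b1 (-0.071 without plate 4 to 0.14) and Srsf11 (-0.21 without plate 5 to 0.26). The cause of these changes was not tested.

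Of the family ratios, Snrp between groups 9 and 10 and groups 2 to 5 was 0.50 thinned, against 0.58, and Hnrnp by CFP rank 0.20, against 0.35. The others moved by less than 1 SD, but that SD is wide for Srsf by CFP rank, which went from 0.19 to 0.09 without plate 5, 0.29 without plate 2 and 0.31 thinned. The 14 members not tested had 1 to 86 UMIs in all.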
